A study of Drosophila melanogaster with 10 samples.

Results

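The genes described here encode the subunits of the proteasome and were chosen by name: a FlyBase symbol that starts with Prosalpha, Prosbeta, Rpn or Rpt and goes on with a digit. The rule found 48 of the 13986 genes in the deposited tables. No expression value enters the rule, though it was set with earlier results of these data known. Of these, 32 were standard members, 14 of the core particle and 18 of the regulatory particle, and 16 were testis-type paralogs, whose symbols end in T or R with or without a further digit (11 core, 5 regulatory). The members lie on every large chromosome arm, with 14 on 3R, 13 on 2R, 8 on 2L, 7 on 3L and 6 on X.

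The proteasome degrades proteins that carry chains of ubiquitin. Its core particle is a barrel of stacked rings, with Prosalpha subunits gating the outer rings and Prosbeta subunits forming the inner rings, where Prosbeta1, Prosbeta2 and Prosbeta5 carry the caspase-like, trypsin-like and chymotrypsin-like proteolytic sites. The regulatory particle caps the barrel: a ring of ATPases (Rpt) unfolds the substrate, Rpn1, Rpn10 and Rpn13 bind ubiquitin, Rpn2 is a scaffold, and the other Rpn subunits form the lid, in which Rpn11 removes ubiquitin. Flies also carry duplicated subunit genes that are known for expression in the male germ line.

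Oenocytes, the hydrocarbon-producing cells under the abdominal cuticle, were taken from adult males of 5 genotypes, and poly(A) RNA was sequenced from 2 libraries of each, 10 in all. All genotypes carried the driver prom-E800-Gal4, which is active in oenocytes, and all flies were raised at 25 °C and moved on eclosion to 29 °C, where they stayed for 7 days. In fru_330035, fru_Trip and fru_105005 the driver was combined with Fru-RNAi, from the stocks VDRC330035, BDSC#31593 and VDRC105005, so each line rests on 1 hairpin stock. In fruB_OE it was combined with UAS-FruCOMB, which overexpresses a B isoform of the zinc-finger transcription factor Fru. The study describes FruCOM proteins as not sex-specific, unlike the male-specific Fru proteins known for courtship. In Ctrl the driver was combined with UAS-mCD8-GFP, a membrane-bound green fluorescent protein that the labels list for no other genotype. The number of animals behind a library and whether the replicates came from separate flies are not given in the sources used here, so p-values measure the spread between these libraries, which may be technical.

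Library totals lay between 23415354 and 46840820 expected counts. The targeted gene fru, on the TMM-rescaled TPM scale explained in the next paragraph, went against the label in 2 of the RNAi lines: it had 3.66 and 3.55 in fru_330035, 7.29 and 7.32 in fru_Trip, 1.602 and 1.62 in fru_105005, 43.5 and 43.3 in fruB_OE, against 2.26 and 2.34 in Ctrl. The log2 fold change of fru against Ctrl was 0.57 in fru_330035, 1.03 in fru_Trip, -0.68 in fru_105005 and 4.34 in fruB_OE, so the names below stand for the libraries labelled so. These values are RNA over the whole gene. By other measures the study reports loss of FruCOM antibody staining in oenocytes with fru RNAi, and knockdown by RT-qPCR with a whole-body driver. Markers of oenocytes and of other cells also moved. The summed level of 8 oenocyte genes was 13535 to 13569 in fru_330035, 73443 to 75624 in fru_Trip, 85930.4 to 87172 in fru_105005 and 44315 to 44564 in fruB_OE, against 58856 to 59205 in Ctrl. Most of that sum is Cyp4g1, the cytochrome P450 of hydrocarbon synthesis. Of these 8 genes 6 were called lower and 2 higher in fru_330035, and 7 lower and 1 higher in fruB_OE. In fru_Trip 1 was called lower and 7 higher, and in fru_105005 1 lower and 6 higher. The shares of all genes called in each comparison are given with the members below. The summed level of 6 muscle genes was 1619 to 1624 in fru_330035, 986 to 1009 in fru_Trip, 947 to 958 in fru_105005 and 1454 to 1493 in fruB_OE, against 790.0 to 794 in Ctrl. The 9 gut genes summed to 165 and 166 in fru_330035, 143 and 977 in fru_Trip, 127 and 755 in fru_105005 and 216 and 349 in fruB_OE, against 98.5 and 118 in Ctrl, so the second libraries of fru_Trip and fru_105005, and less so that of fruB_OE, stood above the first. Without the second library the members called against Ctrl were 17 lower and 9 higher in fru_Trip, and 3 lower and 31 higher in fru_105005. In bulk samples fewer cells of a type and less RNA per cell cannot be told apart, and the part of these markers in the results below was not tested.

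Levels below are TPM, transcript abundances scaled for gene length and library depth, that the authors rescaled by 1 TMM factor for each library, so that libraries and genes can be set side by side per length. By this measure the core particle genes stood above the regulatory particle genes in all 5 genotypes. The 14 core genes summed to 6238 ± 70.1 in fru_330035, 8815 ± 34.2 in fru_Trip, 9807 ± 132 in fru_105005 and 9034 ± 34.7 in fruB_OE, against 8423 ± 36.4 in Ctrl (SD, n = 2 each). The 18 regulatory genes summed to 2378 ± 13.4 in fru_330035, 3111 ± 14.9 in fru_Trip, 4312 ± 40.9 in fru_105005 and 3267 ± 15.7 in fruB_OE, against 3604 ± 33.4 in Ctrl (SD, n = 2 each). In both sums fru_330035 was lowest and fru_105005 highest, while fru_Trip and fruB_OE lay above Ctrl in the core sum and below it in the regulatory sum. The place of fru_Trip and fruB_OE in the core sum depends on the scaling: in TPM without the TMM factor it averaged 7956 in fru_Trip and 8594 in fruB_OE, against 8683 in Ctrl, so that both lay below Ctrl and the order of the genotypes was the same for both particles. On the TMM-rescaled scale no pair of neighbouring genotypes overlapped in either sum. Together the standard members took 0.962% of all TPM in fru_330035, 1.08% in fru_Trip, 1.43% in fru_105005 and 1.17% in fruB_OE, against 1.24% in Ctrl.

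Prosbeta7, a beta ring subunit with no proteolytic site, was the most abundant core gene in all 5 genotypes, and the lid gene Rpn6 was the most abundant regulatory gene in all 5. Replicates lay close together. The median difference between replicate libraries over the 32 standard members was 0.016 to 0.026 on the log2 scale, and the largest was 3.72% to 7.15% when Prosalpha1 was left aside. Prosalpha1 itself differed by 0.34 to 0.99 (log2) between replicates, and it shares reads with a near-identical copy described below. By mean level, 25 of the 32 standard members were highest in fru_105005 and 30 were lowest in fru_330035. The exceptions at the top were Prosalpha5, Prosbeta1, Prosbeta6 and Rpn11, highest in fruB_OE, Prosbeta2 and Rpn6, highest in Ctrl, and Prosbeta3, highest in fru_330035. For Prosalpha5 the libraries of fruB_OE (611 and 617) lay between those of fru_105005 (599 and 622). Prosbeta3 and Rpn6 were lowest in fruB_OE. The genotypes of highest and lowest mean were not counted over all genes.

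**Figure D1:**
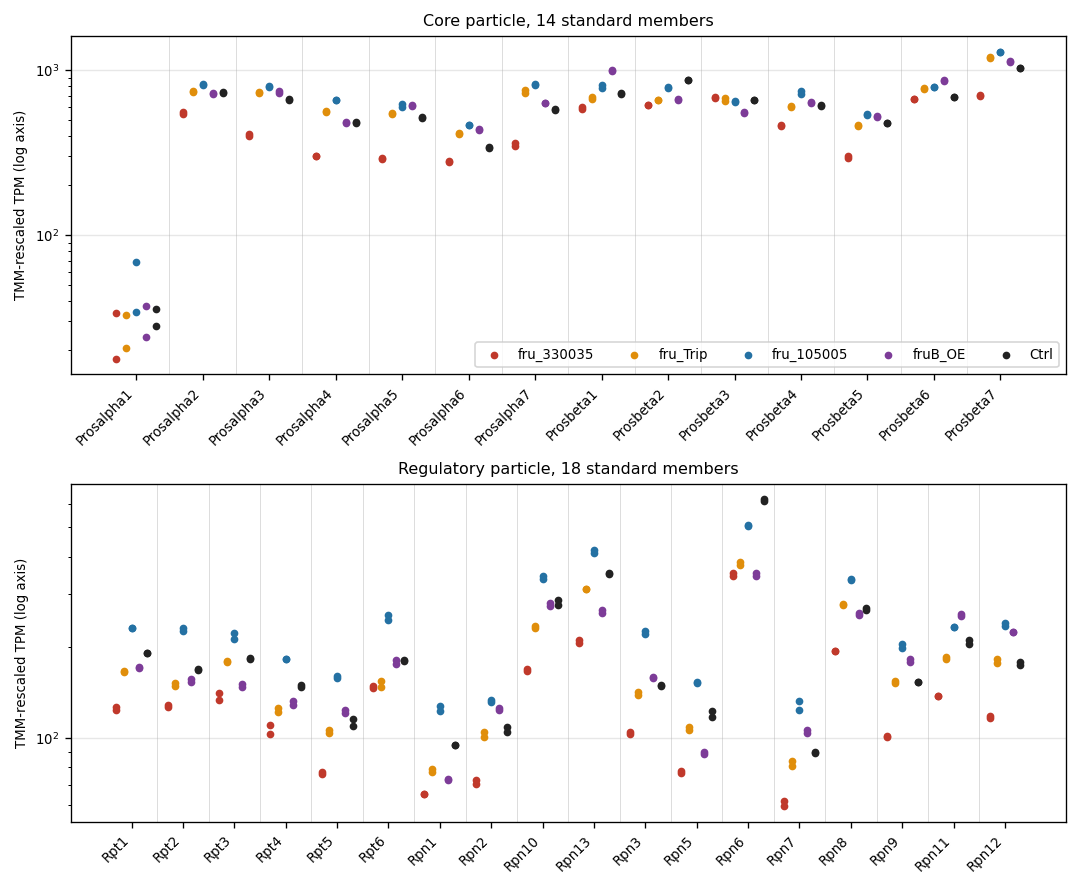
TMM-rescaled TPM (log axis) of the 14 core and 18 regulatory standard members, with 1 point per library and the 5 genotypes side by side within each gene. Both red points of fru_330035 lie below all others for 28 of the 32 genes and both blue points of fru_105005 above all others for 24, while Prosalpha1 lies far below the other core genes. Such separation was not counted over all genes.

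The first comparison set the libraries labelled fru_330035 against Ctrl. Of the 48 members 35 were called lower and 2 higher than in Ctrl (adjusted p under 0.05 from edgeR), beside 30.6% of all 11729 genes called lower and 31.7% called higher. The median log2 fold change of the members was -0.54, and that of all genes tested -0.0087. The changes were moderate: 16 members were called lower and none higher by at least 1.5-fold, beside 11.8% and 16.0% of all genes. At the stricter thresholds of a 4-fold change and an adjusted p of at most 0.001, no member was called in any of the 4 comparisons with Ctrl. Of all genes 1.08% passed these thresholds as lower and 1.69% as higher in fru_330035, 0.698% and 1.05% in fru_Trip, 0.732% and 0.619% in fru_105005, and 2.79% and 1.34% in fruB_OE. Scaling by library size alone moved the median of all genes by 0.21 (log2), and relative to that shift the members' median was -0.53.

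All 18 regulatory genes were called lower in fru_330035, with a median of -0.56 and a range of -0.79 to -0.28. Of the 14 core genes 11 were called lower and 1 higher, with a median of -0.45. By subcomplex the median was -0.66 for the alpha ring (6 of 7 called lower), -0.39 for the beta ring (5 of 7 lower, 1 higher), -0.43 for the ATPase ring (6 of 6), -0.65 for Rpn1, Rpn2, Rpn10 and Rpn13 (4 of 4) and -0.58 for the lid (8 of 8). Genes of every subcomplex fell, and the 3 standard members not called lower were Prosalpha1, Prosbeta3 and Prosbeta6. Prosbeta3, a noncatalytic beta ring subunit, had 683 and 693 in fru_330035, 677 and 654 in fru_Trip, 648 and 639 in fru_105005, 551 and 557 in fruB_OE, against 659 and 658 in Ctrl. Its log2 fold change of 0.073 (SE 0.019, edgeR adjusted p = 0.0036) in fru_330035 was the only rise among the standard members, and it was small. Prosbeta6 (log2 fold change -0.034, edgeR adjusted p = 0.14) and Prosalpha1 (-0.27, edgeR adjusted p = 0.26) were not called there.

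The largest fall among standard members in fru_330035 was that of Prosalpha5, an alpha ring subunit, which had 289.6 and 292 in fru_330035, 554 and 544 in fru_Trip, 599 and 622 in fru_105005, 611 and 617 in fruB_OE, against 512 and 522 in Ctrl. The fru_330035 libraries lay below all others, with a log2 fold change of -0.82 (SE 0.021, edgeR adjusted p = 3.1e-13). Prosbeta5, the chymotrypsin-like subunit, had 301 and 295 in fru_330035, 465 and 459 in fru_Trip, 533 and 542 in fru_105005, 529 and 524 in fruB_OE, against 476 and 482 in Ctrl. It fell in fru_330035, with a log2 fold change of -0.67 (SE 0.021, edgeR adjusted p = 2.5e-12), while the other genotypes lay between 459 and 542. Against Ctrl it was also called lower in fru_Trip and higher in fru_105005, by smaller amounts given below. Prosbeta1, the caspase-like subunit, had 579 and 599 in fru_330035, 689 and 671 in fru_Trip, 781 and 810.3 in fru_105005, 998 and 984 in fruB_OE, against 721 and 725 in Ctrl. Its fall in fru_330035 was smaller, with a log2 fold change of -0.29 (SE 0.020, edgeR adjusted p = 1.9e-08).

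Among the ubiquitin receptors, Rpn10 had 170.1 and 166 in fru_330035, 236 and 232 in fru_Trip, 338 and 346 in fru_105005, 280.1 and 274 in fruB_OE, against 276 and 286 in Ctrl. Rpn13 had 207 and 211 in fru_330035, 313 and 313 in fru_Trip, 412 and 422 in fru_105005, 266 and 260.2 in fruB_OE, against 350.4 and 353 in Ctrl. Rpn1, which also binds shuttle factors, had 65.3 and 65.3 in fru_330035, 79.2 and 77.2 in fru_Trip, 123 and 128 in fru_105005, 73.1 and 72.5 in fruB_OE, against 95.1 and 94.7 in Ctrl. All 3 were lowest in fru_330035 and highest in fru_105005, with no overlap between those genotypes and Ctrl. The log2 fold changes in fru_330035 against Ctrl were -0.73 for Rpn10, -0.74 for Rpn13 and -0.53 for Rpn1. Rpn11, the deubiquitinase of the lid, had 138 and 138 in fru_330035, 186 and 183 in fru_Trip, 233 and 233 in fru_105005, 254 and 258 in fruB_OE, against 205 and 212 in Ctrl, a log2 fold change of -0.59 (SE 0.025, edgeR adjusted p = 5.9e-11) in fru_330035.

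In the libraries labelled fru_105005 the direction was the opposite. Of the 48 members 32 were called higher and 4 lower than in Ctrl, beside 26.0% of all 11472 genes called higher and 26.7% called lower, with a median of 0.26 against -0.0079 over all genes. Both particles took part: 17 of 18 regulatory genes (median 0.31) and 11 of 14 core genes (median 0.22) were called higher. The ATPase ring (6 of 6, median 0.35) and the scaffold and ubiquitin receptor genes (4 of 4, median 0.27) rose without exception, the alpha ring in 6 of 7 and the lid in 7 of 8. The sizes were small, and 2 members were called higher and none lower by at least 1.5-fold, beside 11.3% and 9.44% of all genes. Both of these, Prosalpha1R and Rpt4R, are testis-type by symbol and are described below.

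The largest called rises among standard members in fru_105005 were in the lid, while Prosalpha1, whose replicates lay far apart, had a log2 fold change of 0.65 that was not called (edgeR adjusted p = 0.071). Rpn3 had 103 and 105 in fru_330035, 139 and 142 in fru_Trip, 221 and 226 in fru_105005, 159.8 and 159 in fruB_OE, against 149.8 and 148 in Ctrl, a log2 fold change of 0.56 (SE 0.020, edgeR adjusted p = 7.4e-08). Rpn7 had 59.4 and 62.02 in fru_330035, 84.1 and 80.8 in fru_Trip, 124 and 133 in fru_105005, 104 and 107 in fruB_OE, against 89.3 and 89.9 in Ctrl, a log2 fold change of 0.49 (SE 0.034, edgeR adjusted p = 4.1e-06). In both genes the fru_105005 libraries stood above all others and the fru_330035 libraries below all others. The catalytic genes moved less: the log2 fold change was 0.11 for Prosbeta1, 0.14 for Prosbeta5 and -0.18 for Prosbeta2. With library size alone Prosbeta1 (0.018), Prosbeta5 (0.046) and Rpn11 (0.042) were no longer called in fru_105005.

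The libraries labelled fru_Trip split the 2 particles. Of the 48 members 18 were called lower and 9 higher than in Ctrl, beside 23.9% of all 11464 genes called lower and 26.0% called higher, with a median of -0.074 against -0.017 over all genes. By at least 1.5-fold 3 were lower and none higher, beside 8.03% and 11.4% of all genes. Of the 18 regulatory genes 13 were called lower and none higher (median -0.17), whereas 7 of the 14 core genes were called higher and 3 lower (median 0.050). The rises lay mostly in the alpha ring, where 5 of 7 genes were called higher and none lower. The 2 largest were Prosalpha7 and Prosalpha6. Prosalpha7 had 349 and 363 in fru_330035, 754 and 727 in fru_Trip, 811 and 821 in fru_105005, 630.1 and 631 in fruB_OE, against 573 and 586 in Ctrl, a log2 fold change of 0.35 (SE 0.020, edgeR adjusted p = 3.4e-06). Prosalpha6 had 277 and 283 in fru_330035, 418 and 412 in fru_Trip, 465 and 466 in fru_105005, 435 and 438 in fruB_OE, against 343 and 338 in Ctrl, a log2 fold change of 0.28 (SE 0.020, edgeR adjusted p = 1.1e-05). The ATPase ring, which docks onto the alpha ring, went the other way, with 5 of 6 genes called lower and a median of -0.19. With library size alone, which moved all genes by -0.16 (log2), 29 members were called lower and the median was -0.24, or -0.056 relative to all genes, and Prosalpha5 (0.085 with TMM) reversed to -0.079. The called falls of Prosbeta5 (-0.058), Rpn3 (-0.085) and Rpn7 (-0.12) in fru_Trip were lost without Ctrl replicate 2 (adjusted p = 0.091, 0.062 and 0.073 from edgeR), and those of Rpn3 and Rpn7 also without Ctrl replicate 1.

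In fruB_OE 16 members were called lower and 10 higher than in Ctrl, beside 33.7% of all 11601 genes called lower and 31.4% called higher, with a median of -0.012 against 0.036 over all genes. As a share of the 48 members, neither count exceeded that of all genes. By at least 1.5-fold 2 were lower and 1 higher, beside 18.9% and 17.4% of all genes. The count of higher calls depends on the scaling: it was 21 with library size alone and 19 with limma on the deposited values, and the median then turned positive (0.16 and 0.09). Library size alone moved all genes by 0.17 (log2), and relative to them the members' median was -0.047. On the deposited scale fruB_OE lies 0.12 (log2) higher against Ctrl than in edgeR, which bears on every fruB_OE level given here. Of the 18 regulatory genes 11 were called lower and 5 higher. Of the 14 core genes 4 were called each way, below the share of all genes in both directions. The ATPase ring was lower in 5 of 6 genes (median -0.27), with Rpt3 at -0.42, and 3 of the 4 scaffold and receptor genes were lower, with Rpn13 at -0.55 and Rpn1 at -0.51. The lid was divided. Rpn5, a lid subunit, had 76.7 and 78.02 in fru_330035, 109 and 106 in fru_Trip, 152 and 153 in fru_105005, 88.5 and 89.9 in fruB_OE, against 118 and 123 in Ctrl, a log2 fold change of -0.56 (SE 0.029, edgeR adjusted p = 4.2e-09) in fruB_OE. Rpn12, Rpn11, Rpn9 and Rpn7 were called higher in fruB_OE, between 0.11 and 0.23. The largest rises among standard members were Prosbeta1 at 0.34 (SE 0.018, edgeR adjusted p = 4.9e-09) and Prosalpha6 at 0.26.

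**Figure D2:**
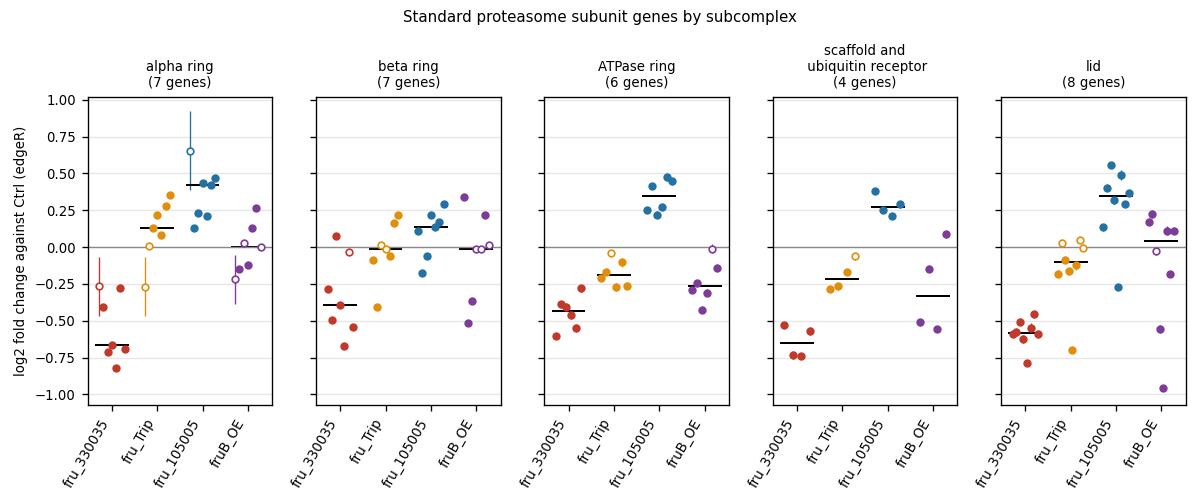
Log2 fold change against Ctrl from edgeR (vertical axis, with SE bars) of each standard member in fru_330035, fru_Trip, fru_105005 and fruB_OE, by subcomplex. Filled points were called at an adjusted p under 0.05, open points were not, and black bars are medians: those of fru_330035 are below 0 in all 5 subcomplexes and those of fru_105005 above 0 in all 5.

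The RNAi lines were next set against each other, since the comparisons with Ctrl share the Ctrl libraries. Against fru_105005, 36 of the 48 members were called lower in fru_330035 and 1 higher, beside 27.9% of all 11738 genes called lower and 28.6% higher, with a median of -0.76, or -0.77 relative to all genes with library size alone. Here 29 members were lower by at least 1.5-fold, beside 11.8% of all genes. The regulatory genes had a median of -0.90 (18 of 18 lower) and the core genes of -0.77 (13 of 14 lower). Against Ctrl, 30.6% of all genes were called lower in fru_330035 and 26.0% higher in fru_105005. The number of all genes with both calls was not counted. Of the 32 standard members, 27 were called lower in fru_330035 and higher in fru_105005 against Ctrl, and all 27 were called lower between the lines. Prosbeta3 alone had the reverse pattern and was called higher in fru_330035 than in fru_105005, by 0.12 (SE 0.018, edgeR adjusted p = 0.00083), although its fall in fru_105005 against Ctrl (-0.060) was lost without either Ctrl replicate (adjusted p = 0.14 and 0.069 from edgeR) and without fru_105005 replicate 2 (adjusted p = 0.20 from edgeR). The largest differences were those of Prosalpha7 at -1.18, Prosalpha4 at -1.11 and Rpn3 at -1.08.

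Against fru_Trip, 32 members were called lower in fru_330035 and 1 higher, beside 25.1% of all 11732 genes called lower and 26.6% higher, with a median of -0.41. This comparison leans on the scaling: with library size alone 15 were lower and 10 higher and the median was -0.035, while all genes then had a median of 0.39, so that the distance between the members and all genes stayed at -0.42. Prosalpha7 differed most, at -1.04. Rpn6, at -0.081, and Prosbeta2, at -0.084, differed least among the called falls of standard members, and both reversed with library size alone (0.29 each). The call of Rpn6 was also lost without fru_330035 replicate 2 (adjusted p = 0.075 from edgeR).

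Against fru_105005, 30 members were called lower in fru_Trip and none higher, beside 18.4% of all 11520 genes called lower and 18% higher, with a median of -0.24. The regulatory genes (18 of 18 lower, median -0.48) were further apart between these lines than the core genes (11 of 14 lower, median -0.14). Rpt6, an ATPase, differed most among the standard members called, at -0.72, while Prosalpha1 (-0.94, edgeR adjusted p = 0.089), Prosbeta6 (-0.015) and Prosbeta3 (0.065) were not called.

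Rpn6 and Prosbeta2 departed from the other members. Rpn6 (chr2R:14750166-14752910, minus strand, BDGP6.54) encodes a lid subunit that braces the regulatory particle against the core. It had 354 and 345 in fru_330035, 383 and 375 in fru_Trip, 505 and 508 in fru_105005, 346 and 353 in fruB_OE, against 611 and 619.8 in Ctrl. All 8 libraries of the other genotypes lay below both Ctrl libraries. The log2 fold change of Rpn6 was -0.79 (SE 0.019, edgeR adjusted p = 1.9e-13) in fru_330035, -0.70 (SE 0.016, edgeR adjusted p = 1.9e-08) in fru_Trip, -0.27 (SE 0.017, edgeR adjusted p = 2.7e-06) in fru_105005 and -0.96 (SE 0.018, edgeR adjusted p = 2.7e-13) in fruB_OE. In fru_105005 it was the only regulatory gene called lower, while 17 others were called higher. Across the alternatives tried it stayed between -0.36 and -0.26 in fru_105005.

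Prosbeta2 (chr3L:14999951-15001319, plus strand, BDGP6.54), the trypsin-like subunit, had 614 and 614 in fru_330035, 661 and 657 in fru_Trip, 778 and 796 in fru_105005, 669.6 and 657 in fruB_OE, against 872 and 872 in Ctrl. Its log2 fold change was -0.50 in fru_330035, -0.41 in fru_Trip, -0.18 in fru_105005 and -0.51 in fruB_OE. Both genes were thus called lower in all 4 comparisons with Ctrl, the only 2 of the 32 standard members with that pattern. Of all genes, between 23.9% (fru_Trip) and 33.7% (fruB_OE) were called lower in a single comparison with Ctrl. The share called lower in all 4 was not counted, so the pattern has no background beside it. As the 4 comparisons share the same 2 Ctrl libraries, a level that is high in those libraries enters all of them. The exons of Prosbeta2 overlap those of Reck, and its counts were not whole, so reads may have been divided between the genes. In all, 13 of the 32 standard members overlap another counted gene and 8 had counts that were not whole.

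**Figure D3:**
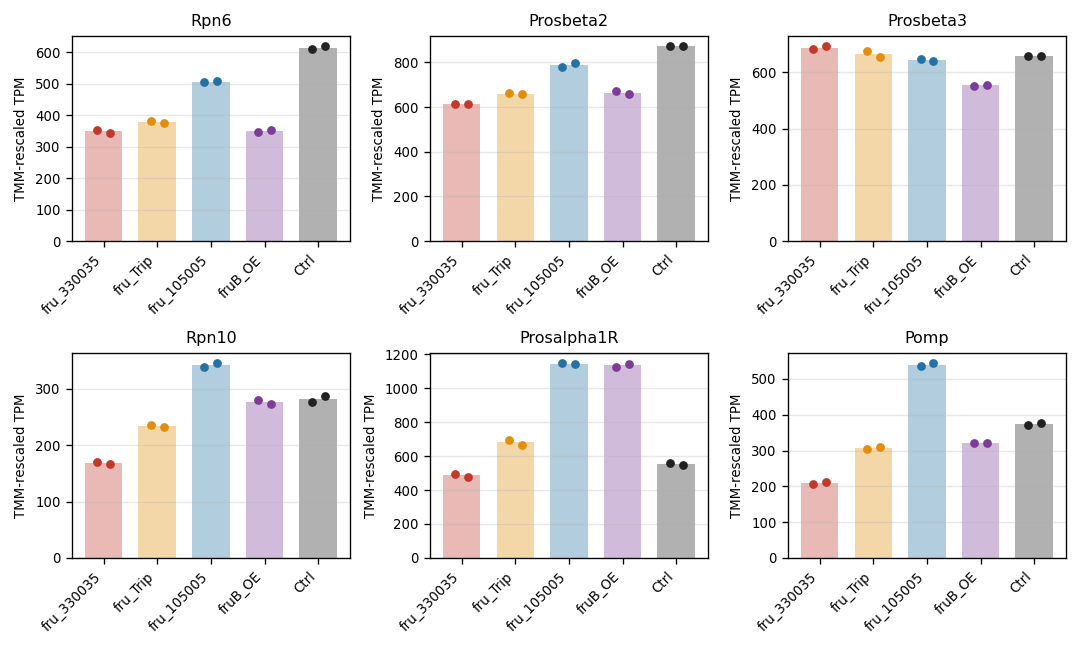
TMM-rescaled TPM of Rpn6, Prosbeta2, Prosbeta3, Rpn10, Prosalpha1R and the assembly factor Pomp in each library (points) with the genotype mean (bars). Rpn6 and Prosbeta2 are highest in Ctrl, Rpn10 and Pomp are lowest in fru_330035 and highest in fru_105005, Prosbeta3 is lowest in fruB_OE, and Prosalpha1R is about as high in fruB_OE as in fru_105005.

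The balance between the particles was measured as the log2 ratio of the core sum to the regulatory sum, which is the same under any scaling of a library. It was 1.39 ± 0.0081 in fru_330035, 1.503 ± 0.0013 in fru_Trip, 1.19 ± 0.0057 in fru_105005 and 1.47 ± 0.0013 in fruB_OE, against 1.23 ± 0.0071 in Ctrl (SD, n = 2 each). The libraries of neighbouring genotypes did not overlap, though with 2 libraries each no exact permutation test can reach a two-sided p under 0.05, as the smallest it can give is 1 in 3. Rpn6 weighs on this ratio because of its high level in Ctrl. Without Rpn6 it was 1.62 in fru_330035, 1.69 in fru_Trip, 1.37 in fru_105005 and 1.63 in fruB_OE, against 1.5 in Ctrl, in the same order of genotypes. With Prosalpha1R counted as a core gene it was 1.5 in fru_330035, 1.61 in fru_Trip, 1.34 in fru_105005 and 1.64 in fruB_OE, against 1.32 in Ctrl, and fru_105005 then lay just above Ctrl and fruB_OE just above fru_Trip.

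**Figure D4:**
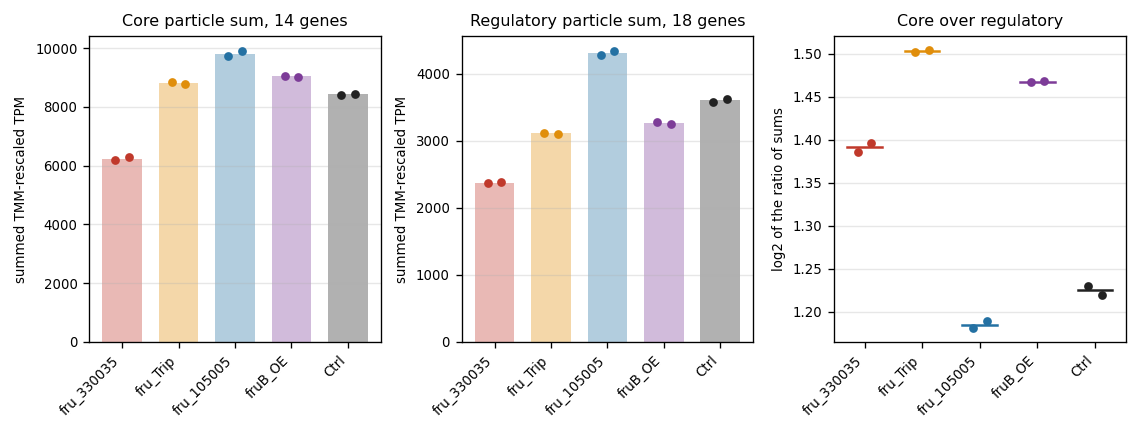
Summed TMM-rescaled TPM of the core and the regulatory standard members, and the log2 ratio of the sums, for each library (points) with the genotype mean (bars, or lines in the ratio panel, whose axis does not start at 0). The ratio is highest in fru_Trip (1.503) and lowest in fru_105005 (1.19).

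Prosalpha1R went against the testis-type label. It had 494 and 478 in fru_330035, 694 and 668 in fru_Trip, 1149 and 1139.7 in fru_105005, 1125 and 1144 in fruB_OE, against 558 and 546 in Ctrl, at the level of the standard core genes and above Prosalpha1 in every library. Prosalpha1 had 17.8 and 33.7 in fru_330035, 20.6 and 32.5 in fru_Trip, 34.4 and 68.3 in fru_105005, 37.2 and 23.9 in fruB_OE, against 27.97 and 35.5 in Ctrl. Prosalpha1R (chr2R:7830413-7831771) and Prosalpha1 (chr2R:7827303-7828678) lie close together on the minus strand, and the counts of both were not whole in any library, so the division of reads between these near-identical copies is uncertain. Prosalpha1R was called lower in fru_330035, with a log2 fold change of -0.16 (SE 0.023, edgeR adjusted p = 3e-05) that reversed to 0.053 with library size alone, and higher in fru_Trip, at 0.29 (SE 0.020, edgeR adjusted p = 9.7e-06), in fru_105005, at 1.04 (SE 0.019, edgeR adjusted p = 1.3e-09), and in fruB_OE, at 0.89 (SE 0.019, edgeR adjusted p = 8.8e-13). The rises in fru_105005 and fruB_OE were larger than that of any standard member called in those comparisons. When the counts of Prosalpha1 and Prosalpha1R were added together, the log2 fold change was -0.17 ± 0.019 in fru_330035, 0.26 ± 0.015 in fru_Trip, 1.02 ± 0.018 in fru_105005 and 0.85 ± 0.017 in fruB_OE (SE, adjusted p = 3.3e-06, 3.7e-06, 1.2e-09 and 5.4e-13 from edgeR), a sum that does not depend on how reads were divided between the copies. Prosalpha1 alone was not called in any comparison with Ctrl.

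The other 15 testis-type paralogs were scarce. They lay between 0.55 and 11.0 TMM-rescaled TPM in all libraries and at 0.141% to 5.62% of the mean level of their standard counterparts. Together they summed to 33.6 and 34.0 in fru_330035, 42.2 and 39.7 in fru_Trip, 43.4 and 43.1 in fru_105005 and 47.5 and 49.6 in fruB_OE, against 41.8 and 45.3 in Ctrl. Testis transcripts were present in every library: 10 testis genes summed to 470.5 to 472 in fru_330035, 390.0 to 409 in fru_Trip, 303 to 324 in fru_105005 and 707 to 709 in fruB_OE, against 496 to 514 in Ctrl. Most of that sum came from the spermatid genes Mst87F (92.6 to 233 over all libraries), Mst84Dc (85.1 to 203), ocn and dj. In fru_105005 both Mst87F and Mst84Dc lay below every standard regulatory gene, the lowest of which had 123 and 128. In the other genotypes both lay within the range of those genes. They stood above the regulatory median in fru_330035 and fruB_OE and below it in fru_Trip. In Ctrl Mst87F stood above that median and Mst84Dc below it. The meiotic arrest genes can and aly lay at or below 0.44 in every library. Of the 10 testis genes 2 were called lower and 1 higher in fru_330035, 4 lower and 1 higher in fru_Trip, 5 lower and 4 higher in fru_105005, and, of the 9 tested, none lower and 8 higher in fruB_OE. The shares of all genes called lower and higher were 30.6% and 31.7% in fru_330035, 23.9% and 26.0% in fru_Trip, 26.7% and 26.0% in fru_105005, and 33.7% and 31.4% in fruB_OE. The part of this testis signal in the paralogs' levels was not tested.

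Rpt3R, the paralog of the ATPase Rpt3 and the most abundant of the 15 in fru_330035, fru_Trip, fru_105005 and Ctrl, had 6.53 and 7.16 in fru_330035, 10.96 and 9.17 in fru_Trip, 8.44 and 8.62 in fru_105005, 4.87 and 4.98 in fruB_OE, against 6.95 and 6.94 in Ctrl. It was called higher in fru_Trip (log2 fold change 0.53) and fru_105005 (0.27, not called with library size alone) and lower in fruB_OE (-0.62 (SE 0.1, edgeR adjusted p = 0.00022)). Its fall in fruB_OE was the only called change among the 15 in that genotype. Rpt6R had 2.95 and 2.96 in fru_330035, 2.81 and 3.13 in fru_Trip, 3.25 and 2.97 in fru_105005, 1.85 and 2.69 in fruB_OE, against 1.96 and 2.22 in Ctrl. Rpt4R had 1.23 and 1.32 in fru_330035, 1.17 and 1.302 in fru_Trip, 1.94 and 1.93 in fru_105005, 1.09 and 1.503 in fruB_OE, against 0.902 and 0.873 in Ctrl. Rpt6R was called higher in fru_330035 (0.51) and fru_105005 (0.55), and Rpt4R in fru_105005 (1.09). These ATPase paralogs therefore did not follow the standard ATPase genes in fru_330035, all 6 of which were called lower.

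Among the core paralogs, Prosalpha6T had 2.82 and 2.696 in fru_330035, 3.16 and 3.16 in fru_Trip, 4.22 and 3.27 in fru_105005, 5.51 and 5.88 in fruB_OE, against 5.57 and 4.95 in Ctrl. Prosbeta4R2 had 4.61 and 4.03 in fru_330035, 4.55 and 4.56 in fru_Trip, 3.66 and 5.601 in fru_105005, 6.78 and 6.998 in fruB_OE, against 6.100 and 6.92 in Ctrl. Prosbeta5R1 had 3.17 and 4.24 in fru_330035, 4.995 and 4.62 in fru_Trip, 5.14 and 5.01 in fru_105005, 8.37 and 7.26 in fruB_OE, against 5.77 and 6.43 in Ctrl. These were the more abundant ones, and all 3 were called lower in fru_330035, with log2 fold changes of -0.92 for Prosalpha6T, -0.64 for Prosbeta4R2 and -0.70 for Prosbeta5R1. Prosalpha6T was also called lower in fru_Trip (-0.73) and in fru_105005 (-0.51), and Prosbeta4R2 in fru_Trip (-0.59). Prosalpha4T2 had 1.82 and 2.35 in fru_330035, 2.16 and 2.25 in fru_Trip, 2.59 and 2.63 in fru_105005, 3.11 and 4.11 in fruB_OE, against 2.76 and 3.299 in Ctrl. Prosbeta5R2 had 1.25 and 0.884 in fru_330035, 1.602 and 2.02 in fru_Trip, 2.59 and 1.92 in fru_105005, 1.504 and 1.97 in fruB_OE, against 2.04 and 1.51 in Ctrl. Both were called lower in fru_330035, at -0.49 for Prosalpha4T2 and -0.74 for Prosbeta5R2, calls that DESeq2 did not make (adjusted p = 0.16 and 0.14).

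The rest were scarcer still, and each of the 15 paralogs had between 14 and 457 counts in a library, so that only larger changes were detectable at this depth. Prosalpha3T had 0.872 and 0.550 in fru_330035, 1.33 and 0.971 in fru_Trip, 1.42 and 0.998 in fru_105005, 1.35 and 1.18 in fruB_OE, against 1.096 and 0.786 in Ctrl. Prosalpha4T1 had 0.978 and 0.550 in fru_330035, 1.49 and 1.38 in fru_Trip, 0.949 and 1.37 in fru_105005, 0.915 and 1.22 in fruB_OE, against 0.824 and 1.56 in Ctrl. Prosbeta2R1 had 1.201 and 0.911 in fru_330035, 1.101 and 1.203 in fru_Trip, 1.21 and 1.31 in fru_105005, 1.66 and 1.53 in fruB_OE, against 1.44 and 1.63 in Ctrl. None of these was called in a comparison with Ctrl. Prosbeta2R2 had 1.32 and 1.32 in fru_330035, 1.57 and 1.17 in fru_Trip, 1.49 and 1.699 in fru_105005, 1.78 and 1.54 in fruB_OE, against 1.31 and 1.76 in Ctrl. Prosbeta4R1 had 0.578 and 1.11 in fru_330035, 1.21 and 1.88 in fru_Trip, 1.91 and 1.68 in fru_105005, 2.598 and 1.75 in fruB_OE, against 1.85 and 1.28 in Ctrl. These were not called against Ctrl either. The regulatory paralogs Rpn13R and Rpn12R complete the list. Rpn13R had 1.36 and 1.42 in fru_330035, 1.55 and 0.971 in fru_Trip, 1.19 and 0.909 in fru_105005, 2.65 and 2.23 in fruB_OE, against 1.203 and 1.84 in Ctrl. Rpn12R had 2.93 and 2.49 in fru_330035, 2.58 and 1.93 in fru_Trip, 3.37 and 3.15 in fru_105005, 3.502 and 4.75 in fruB_OE, against 1.998 and 3.299 in Ctrl. Neither was called against Ctrl. Over the 15 paralogs 5 were called lower and 1 higher in fru_330035, 2 lower and 1 higher in fru_Trip, 1 lower and 3 higher in fru_105005, and 1 lower and none higher in fruB_OE, shares below the background of each comparison given above except for the 5 in fru_330035, which are 33.3% beside 30.6%.

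**Figure D5:**
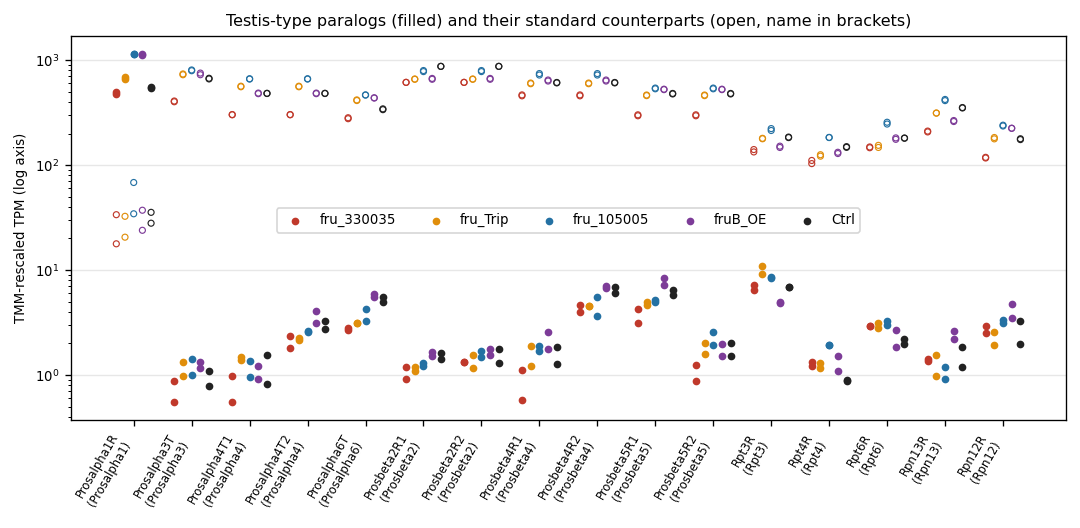
TMM-rescaled TPM (log axis) of the 16 testis-type paralogs (filled points, 1 per library) and of their standard counterparts (open points, named in brackets). Prosalpha1R stands above Prosalpha1 in every library, and the other 15 lie between 0.55 and 11.0, far below their counterparts.

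Of 26 other genes that work with the proteasome, 24 were matched by symbol. In fru_330035 16 of them were called lower and 3 higher (median -0.45), in fru_Trip 12 lower and 6 higher (median -0.12), in fru_105005 13 lower and 6 higher (median -0.13), and in fruB_OE 20 lower and 3 higher (median -0.32). Of all genes tested the shares called lower and higher were 30.6% and 31.7% in fru_330035, 23.9% and 26.0% in fru_Trip, 26.7% and 26.0% in fru_105005, and 33.7% and 31.4% in fruB_OE. Pomp, the chaperone of core particle assembly, had 207 and 212 in fru_330035, 304 and 309 in fru_Trip, 535 and 545 in fru_105005, 321 and 320.5 in fruB_OE, against 372 and 376 in Ctrl. Its log2 fold change of -0.83 (SE 0.022, edgeR adjusted p = 3.5e-13) in fru_330035 and 0.50 (SE 0.018, edgeR adjusted p = 7.5e-08) in fru_105005 lay in the direction of most core genes. PI31, a regulator that binds the core particle, had 89.2 and 88.7 in fru_330035, 166 and 169 in fru_Trip, 193 and 195 in fru_105005, 128 and 126 in fruB_OE, against 128 and 129.99 in Ctrl, with log2 fold changes of -0.52 in fru_330035, 0.37 in fru_Trip, 0.56 in fru_105005 and -0.15 in fruB_OE. REG, the activator that can cap the core particle in place of the regulatory particle, differed least: it had 51.8 and 49.8 in fru_330035, 50.3 and 48.99 in fru_Trip, 45.01 and 46.01 in fru_105005, 53.5 and 51.6 in fruB_OE, against 46.7 and 46.98 in Ctrl, and against Ctrl its only call was a log2 fold change of 0.12 in fru_330035.

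The transcription factor gene cnc, the fly relative of the mammalian Nrf factors that activate proteasome genes, had 100.1 and 102 in fru_330035, 146 and 135 in fru_Trip, 140.3 and 136 in fru_105005, 139 and 144 in fruB_OE, against 145 and 144 in Ctrl. It was called lower in fru_330035, at -0.47 (SE 0.019, edgeR adjusted p = 5.6e-11), and in fruB_OE, at -0.18 (SE 0.020, edgeR adjusted p = 7.3e-06), and it was not called in fru_Trip (-0.019, adjusted p = 0.61) or in fru_105005 (-0.028, adjusted p = 0.26). Keap1, which holds Cnc in check, had 18.9 and 18.7 in fru_330035, 29.2 and 28.7 in fru_Trip, 23.4 and 23.7 in fru_105005, 19.1 and 19.3 in fruB_OE, against 26.04 and 26.4 in Ctrl, with log2 fold changes of -0.46 in fru_330035, 0.13 in fru_Trip, -0.19 in fru_105005 and -0.60 in fruB_OE. Of 6 antioxidant genes that Cnc is known to activate, GstD1 and GstD2, which encode glutathione transferases, were called higher in all 4 comparisons with Ctrl, by 0.66 to 1.35 and by 2.27 to 3.84. In Ctrl GstD1 had 259 and 260, and GstD2 had 2.095 and 1.77 (30 and 32 counts), so the GstD2 changes start from a low level. The 4 comparisons share the same Ctrl libraries, and the share of all genes called higher in all 4 was not counted. Gclc, the catalytic subunit of glutathione synthesis, was called lower in fru_330035 (-0.58) and fruB_OE (-0.98) and higher in fru_105005 (0.12), and so was the thioredoxin reductase gene Trxr1, at -0.36, -1.09 and 0.16. Gclm, the modifier subunit of glutathione synthesis, was called higher in fru_330035 (0.10), fru_Trip (0.15) and fruB_OE (0.11), and the autophagy receptor gene ref(2)P was called lower in fru_330035 (-0.46) and fruB_OE (-0.93) and higher in fru_Trip (0.25) and fru_105005 (0.70).

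Several of the largest changes of the pathway list lay upstream of the proteasome. TER94 is the AAA ATPase that pulls ubiquitinated proteins out of complexes and membranes, and p47 is its cofactor. The cofactor gene p47 had 336 and 346 in fru_330035, 1043 and 1059.6 in fru_Trip, 824 and 843 in fru_105005, 354 and 346 in fruB_OE, against 1075 and 1069.5 in Ctrl, the largest fall of the list in fru_330035 (-1.64 (SE 0.019, edgeR adjusted p = 5.1e-17)) and in fruB_OE (-1.74 (SE 0.017, edgeR adjusted p = 1e-15)). TER94 had 342 and 341 in fru_330035, 347 and 347 in fru_Trip, 443 and 443 in fru_105005, 221 and 219 in fruB_OE, against 502 and 505 in Ctrl, the largest fall in fru_Trip (-0.54). Ubqn, a shuttle that carries ubiquitinated proteins to the proteasome, had 275 and 276 in fru_330035, 328 and 325 in fru_Trip, 305 and 303 in fru_105005, 161 and 164 in fruB_OE, against 423 and 437 in Ctrl, the largest fall in fru_105005 (-0.52). All 3 genes were highest in the Ctrl libraries, with the fru_Trip libraries close below them for p47. The largest rise was that of sip3, an ER-associated ubiquitin ligase, in all 3 RNAi lines: it had 121 and 117 in fru_330035, 84.5 and 85.6 in fru_Trip, 97.99 and 98.2 in fru_105005, 45.5 and 47.5 in fruB_OE, against 54.7 and 57.5 in Ctrl, with log2 fold changes of 1.09 in fru_330035, 0.60 in fru_Trip and 0.78 in fru_105005. In fruB_OE the largest rise was that of rngo, a shuttle protein, at 0.34.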

How the data were processed

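Poly(A) RNA of adult male oenocytes was sequenced in 10 libraries, 2 for each of 5 genotypes. The authors trimmed reads with fastp 0.22.0, mapped them with Bowtie2 to dme6, quantified genes with RSEM 1.2.31 and built gene tables with Trinity scripts. The first deposited table holds expected counts, the authors' RSEM estimates, not normalized and fractional where genes share reads. The second holds TPM, which the authors scaled to the same total in each library. The third is a signal table in which the authors multiplied TPM by 1 TMM factor for each library, as division of the deposited tables showed. Steps before these tables were not repeated, and the annotation version and whether counting used strand are not given in the sources used here. The study's own differential tests used edgeR 3.36.0.

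Symbols came from FlyBase identifiers (13982 of 13986 matched) and positions from BDGP6.54, the same genome release as dme6. Expected counts were rounded, and each comparison was fitted with its 4 libraries in edgeR 4.0.16: filterByExpr at its defaults (minimum count 10, minimum total 15), TMM, glmQLFit and glmQLFTest, with Benjamini-Hochberg adjustment over all genes tested. Calls were made at an adjusted p under 0.05, and all 48 members passed the filter in all 7 comparisons. The 32 standard members were grouped by ring or subcomplex. The procedure was also run on simulated counts with a fixed dispersion and few genes changed, up and down alike. That setting differs from these data and does not bear on how the results depend on the scaling. The members, gene lists and comparisons were chosen with earlier results of these data known.

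Values in every library are given for the catalytic genes, Rpn11 and the ubiquitin receptors, for the 2 standard members with the largest called rise and fall against Ctrl, and for the testis-type paralogs. Of the pathway list Pomp, PI31, REG, cnc and Keap1 are named, with the largest called rise and fall. Other list genes and Rpt3, Rpt6, Prosalpha4, Rpn9, Rpn12 and Prosbeta6 were named after their values were seen. Marker lists covered oenocytes, testis, gut, muscle, fat body, hemocytes, neurons and accessory gland. Summed TMM-rescaled levels not given elsewhere were, for 4 fat body genes, 322 to 340.4 in fru_330035, 661 to 663 in fru_Trip, 723 to 729.5 in fru_105005 and 388 to 401 in fruB_OE, against 392 to 396 in Ctrl. For 4 accessory gland genes they were 83.1 to 93.0 in fru_330035, 67.5 to 87.7 in fru_Trip, 10.6 to 15.1 in fru_105005 and 0.767 to 2.33 in fruB_OE, against 13.1 to 18.3 in Ctrl. The 3 hemocyte and 4 neuron genes summed to at most 4.23 and 5.11 in any library.

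The alternatives were library size alone, DESeq2 1.42.0, a dispersion from all 10 libraries, dropping the filter for a total of 1 count or more, requiring 10 counts in each library compared, the replicate number as a block, limma 3.58.1 on the deposited TMM-rescaled table in log2 with a pseudocount of 1 or 0.1, thresholds of 1.5-fold or of the study, and leaving out each replicate in turn. After seeing the data, 4 were added: the sum of Prosalpha1 and Prosalpha1R, Prosalpha1R in the core sum, the regulatory sum without Rpn6, and particle sums in TPM without the TMM factor. Analyses used R 4.3.3, Python 3.11.15, pandas 2.3.3 and matplotlib 3.10.9.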

Additional observations from a re-analysis of the deposited data

Results flagged for a closer look

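Members that moved in opposite directions against Ctrl in 2 RNAi lines, and that were also called when the lines were compared directly with edgeR, were singled out. Of the 32 standard members, 27 were called lower in fru_330035 and higher in fru_105005, and 1, Prosbeta3, the other way round. Between fru_330035 and fru_Trip there were 6 such members, and between fru_Trip and fru_105005 14. How many of all genes met the same rule was not counted, so these counts have no background beside them. Among the genes named by rule, the log2 fold change of fru_330035 against fru_105005 was -0.41 for Prosbeta1, -0.83 for Prosbeta5, -0.74 for Rpn11, -0.92 for Rpn1, -1.0 for Rpn10 and -0.97 for Rpn13. The log2 fold change of fru_Trip against fru_105005 was -0.21 for Prosbeta1, -0.21 for Prosbeta5, -0.32 for Rpn11, -0.67 for Rpn1, -0.53 for Rpn10 and -0.39 for Rpn13. These lines carry the same kind of label, fru was higher than in Ctrl in fru_330035 and fru_Trip, and the lines differ in the level of oenocyte and muscle genes. The part of either in these differences was not tested.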

How the results depend on the processing

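With library size alone, 4 members were called higher in fru_330035 against Ctrl (median -0.32), 29 lower in fru_Trip (median -0.24), the median was 0.17 in fru_105005, and 21 were called higher in fruB_OE, where the median reversed to 0.16. Between lines the same scaling gave 15 lower and 10 higher in fru_330035 against fru_Trip (median -0.03), 3 higher in fru_330035 against fru_105005 (median -0.44) and a median of -0.31 in fru_Trip against fru_105005. Single genes that reversed with it were Prosalpha1R in fru_330035 (0.053), Prosalpha5 (-0.079) and Prosbeta3 (-0.15) in fru_Trip, Prosbeta5 (0.16), Rpn10 (0.026) and Rpn3 (0.14) in fruB_OE, and, in fru_330035 against fru_Trip, Prosbeta1 (0.18), Prosbeta2 (0.29), Rpn1 (0.13) and Rpn6 (0.29). DESeq2 called 1 member higher in fru_330035, 2 lower in fru_105005 and 0 higher in fru_330035 against fru_Trip. With limma on values plus 1 the median was -0.48 in fru_330035, 2 were lower in fru_105005, 0 higher in fru_330035 against fru_Trip, and in fruB_OE 19 were higher, with a median of 0.09, Prosbeta5 at 0.14 and Rpn3 at 0.095. Plus 0.1 gave 2 lower and a median of 0.29 in fru_105005, 0 higher in fru_330035 against fru_Trip, and in fruB_OE 18 higher, a median of 0.11, Prosbeta5 at 0.14 and Rpn3 at 0.095. Members called higher in fru_Trip against fru_105005 were 2 with all 10 libraries in the fit, 1 with at least 10 counts in every library and 1 with the replicate block.
At a 1.5-fold change the members called lower and higher were 16 and 0 in fru_330035, 3 and 0 in fru_Trip, 0 and 2 in fru_105005 and 2 and 1 in fruB_OE, and at the study's thresholds 0 and 0 in all 4. Leaving out 1 replicate gave 2 to 4 members lower in fru_105005, a median of -0.03 to 0.02 in fruB_OE (reversed without Ctrl replicate 2), 0 to 1 higher in fru_330035 against fru_Trip, a median of -0.76 to -0.72 in fru_330035 against fru_105005, and 0 to 2 higher in fru_Trip against fru_105005. The core to regulatory ratio (log2) of fru_330035, fru_Trip, fru_105005, fruB_OE and Ctrl was 1.61, 1.72, 1.43, 1.67 and 1.51 as a mean of logs, 1.49, 1.61, 1.34, 1.64 and 1.32 over all members, 1.5, 1.61, 1.34, 1.64 and 1.32 with Prosalpha1R added, and 1.62, 1.69, 1.37, 1.63 and 1.5 without Rpn6. In TPM without the TMM factor, an alternative chosen after seeing the data, the core sum against Ctrl (log2) was -0.32 in fru_330035, -0.13 in fru_Trip (reversed), 0.19 in fru_105005 and -0.015 in fruB_OE (reversed), and the regulatory sum -0.48, -0.4, 0.23 and -0.26. The cause of these shifts was not tested.
Of 1903 values of single genes under the alternatives, 1776 kept their direction and side of the threshold, 67 lost and 46 gained a call, and 14 reversed. Replicate numbers were not taken to pair the libraries, since the replicate differences of 2 genotypes correlated across genes by over 0.1 in 4 of 10 genotype pairs (0.484 for fru_Trip and fru_105005, whose second libraries were both high in gut genes) and by -0.031 to 0.094 in the other 6. With the replicate block 32 members were lower in fru_Trip against fru_105005, and the replicate block changed no count of member calls by more than 1.5 times but the one given above. With 2 libraries per genotype calls rest on dispersions shared across genes, and paralogs with few counts allow only large changes to be seen.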
